A study of Mus musculus with 18 samples.

Results

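Livers of mice given carbon tetrachloride (CCl4) for 8 weeks were compared with livers of mice given it for 6 weeks, over 23111 named genes. The comparison holds 6 of the 18 arrays of the series, namely the 3 labelled week 8 and the 3 labelled week 6, chosen by their labels alone. All mice were adult male C57Bl/6N mice that received CCl4 in olive oil at 1.6 g/kg into the peritoneum 2 times a week and were killed 2 days after the last injection. By the labels, the mice of week 6 were 16 weeks old and those of week 8 were 18 weeks old, so age and weeks of CCl4 cannot be told apart. Affymetrix Mouse Gene 2.0 ST arrays were used for RNA of the right liver lobe, with 1 RNA sample on each array. Control mice, 3 arrays, are labelled healthy and 20 weeks old; the sources differ on whether they received olive oil, and they serve here as a reference level together with the 3 arrays each of weeks 2, 4 and 10.

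CCl4 is turned into a reactive radical by cytochrome P450 2E1 in the hepatocytes around the central vein, and these cells die after each dose. Surviving hepatocytes, which are normally quiescent, re-enter the cell cycle to replace them, macrophages clear the debris, and stellate cells turn into myofibroblasts that lay down collagen. Injury, division and matrix deposition thus recur with each injection, and a liver sampled at a fixed time after a dose holds a mixture of all of them. In RNA of whole tissue, fewer cells of a type and less RNA for each cell cannot be told apart.

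Values are deposited log2 intensities from robust multi-array averaging (RMA), 1 for each gene, between 3.606 and 14.12 with a median of 4.35 over all arrays, and a difference of 1 is a change of 2-fold. Replicates 1 and 2 of week 6 were nearly alike in variable genes of high level. Across 500 variable genes with a mean above 8, log2 differences between these arrays had an SD of 0.137, whereas the 17 other pairs of arrays of 1 group ranged from 0.347 to 0.832. Over all genes the SD was 0.144 for this pair and 0.174 to 0.281 for the other 17, so it stood out less. Some genes of lower level differed within the pair, such as Cip2a at 5.22 and 6.25 and Racgap1 at 5.65 and 6.46. Averaging takes this spread out of the fit. The mean of replicates 1 and 2 was counted as 1 sample, which left 2 samples at week 6, 3 at week 8 and 17 in all. A gene was called at a Benjamini-Hochberg adjusted limma p under 0.05 and a fold above 1.5, and the result with 18 separate arrays is given beside it. The 16 measured genes that define hepatocytes had a mean level of 13.0 to 13.1 on each of the 6 arrays. Markers of T and NK cells stayed at a mean level of 4.18 to 4.25 and those of the pancreas at 4.19 to 4.32, both below the median of all values.

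The clearest difference was a lower level of genes of cell division at week 8. With 17 samples, 27 genes were called, of which 23 were lower at week 8 (0.0995% of the genes tested) and 4 were higher (0.0173%). With 18 separate arrays, 127 genes were called lower (0.55%) and 56 higher (0.242%), and these included all 27. Of the 23 genes that fell, 11 belong to a list of 44 measured genes of mitosis, and further ones such as Knl1 and Rad21 act at kinetochores or on chromatids. The 4 genes that rose were Coq10b, Gde1, Lipg and Fitm2. Over all genes the median log2 change was 0.0073, and 2337 genes (10.1%) had an unadjusted p under 0.05.

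**Figure D1:**
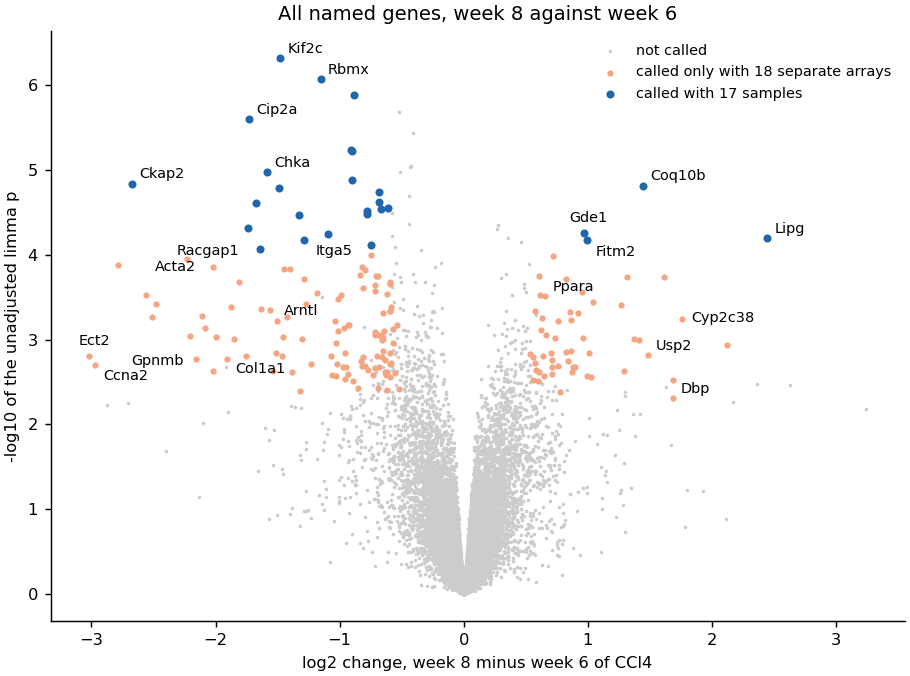
Log2 change from week 6 to week 8 of CCl4 (x axis) against the negative log10 of the unadjusted limma p (y axis) for 23111 named genes. Blue points are the 27 genes called with 17 samples, 23 to the left and 4 to the right, and orange points are the 156 genes called only with 18 separate arrays.

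The number of calls rested on single arrays. Without replicate 3 of week 8, 4 genes were called, among them Kif2c, Rbmx and Serpinb8, and the other 24 of the 27 lost their call. Leaving out replicate 2 of week 8 gave 14 calls, and leaving out control replicate 1, 2 or 3 gave 17, 15 and 16. There were 16 calls when replicate 1 of week 10 was dropped, 43 when replicate 3 of week 4 was, and 51 when replicate 3 of week 6 was, of which 13 were among the 27. With weeks 6 and 8 fitted alone, 2 genes were called, and of the 27 only Rbmx stayed. Replicates 1 and 2 of week 6 were not alike in Rbmx, at 6.80 and 7.45, and their mean lay close to replicate 3 at 7.09. The SD over the samples of week 6 was thus only 0.026, and this call rests on that averaging. In all 27 the 3 arrays of week 8 lay apart from the 3 of week 6. Their direction therefore could not change in any of these fits, and all 27 kept it. Over all genes, 8.89% had every array of week 8 below every array of week 6 and 9.47% had every one above.

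Genes of the spindle and the kinetochore were among the called falls. Of the 23 genes that fell, 11 had a mean at week 8 below 4.35, the median of all values, namely Kif2c, Ckap2, Cenpf, Bub1b, Knl1, Ckap2l, Cip2a, Racgap1, Kif23, Serpinb8 and Col12a1. No detection call was used here, so whether these lay above background at week 8 is not known, and their log2 changes are the measured values and may be smaller than the true ones. Kif2c, a kinesin that takes microtubules apart at kinetochores, had levels of 5.34, 5.61 and 5.67 in replicates 1, 2 and 3 of week 6 and of 4.25, 3.98 and 4.06 in those of week 8. Its measured level at week 8 was 2.79-fold lower, a log2 change of -1.48 (SE 0.16, adjusted p = 0.00983 by limma). Ckap2, which stabilises spindle microtubules, fell from 7.35, 7.29 and 6.71 to 4.67, 4.34 and 4.03, a log2 change of -2.67 (SE 0.39, adjusted p = 0.0238). The week 6 arrays of both genes were all high and the week 8 arrays all low, with a gap of more than 1 between the groups.

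Cenpe, the kinesin motor that moves chromosomes to the spindle equator, fell from 5.56, 6.13 and 5.88 to 4.55, 4.33 and 4.25 (log2 change -1.49, SE 0.22, adjusted p = 0.0239). Cenpf, another kinetochore protein, fell by 0.91 and Bub1b, a kinase-like protein of the spindle checkpoint, by 0.68. Knl1, the scaffold on which the checkpoint assembles at kinetochores, fell by 1.32, and Dlgap5, which helps to build the spindle, by 1.67. Ckap2l, a relative of Ckap2 on the spindle, fell by 0.78. Cip2a, which inhibits protein phosphatase 2A, fell from 5.22, 6.25 and 6.18 to 4.45, 4.22 and 4.03, and here replicate 1 of week 6 stood apart from replicate 2.

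Genes of cytokinesis, the last step of division, fell as well. Racgap1 and Kif23 encode the 2 parts of centralspindlin, which marks the plane of cleavage. Racgap1 fell from 5.65, 6.46 and 5.89 to 4.80, 4.06 and 4.13 (log2 change -1.64, SE 0.29, adjusted p = 0.0488), and Kif23 by 0.90. Anln, the anillin that ties the contractile ring together, fell by 1.74. Ect2, which centralspindlin recruits to start furrowing, had levels of 8.58, 8.75 and 8.05 at week 6 and of 6.28, 4.90 and 4.85 at week 8, the largest log2 change of the list at -3.02, but its SE of 0.75 left it uncalled with 17 samples (adjusted p = 0.151) and called with 18 arrays (adjusted p = 0.035).

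All 44 measured genes of mitosis had a negative log2 change, with a median of -1.51 against 0.0073 over all genes. With 17 samples 11 were called lower against a background of 0.0995% of all genes, with 18 arrays 29 against 0.55%, and none was called higher. The list was chosen with earlier results of these data known, so its counts beside those of all genes are a description only. All 44 had an unadjusted p under 0.05, against 10.1% of all genes. In 43 the array values did not overlap and week 8 was lower, against 8.89% of all genes. Calls in this list numbered 1 when replicate 3 of week 8 was left out, 4 for replicate 2 of week 8, 5 for replicate 3 of week 6 and 16 for replicate 2 of week 10, and 8 to 14 for the other arrays. Ccna2 and Ccnb2, cyclins that drive cells into mitosis, and Kif20a, a kinesin of the midzone, had log2 changes of -2.97, -2.88 and -2.79 and were not called with 17 samples.

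**Figure D2:**
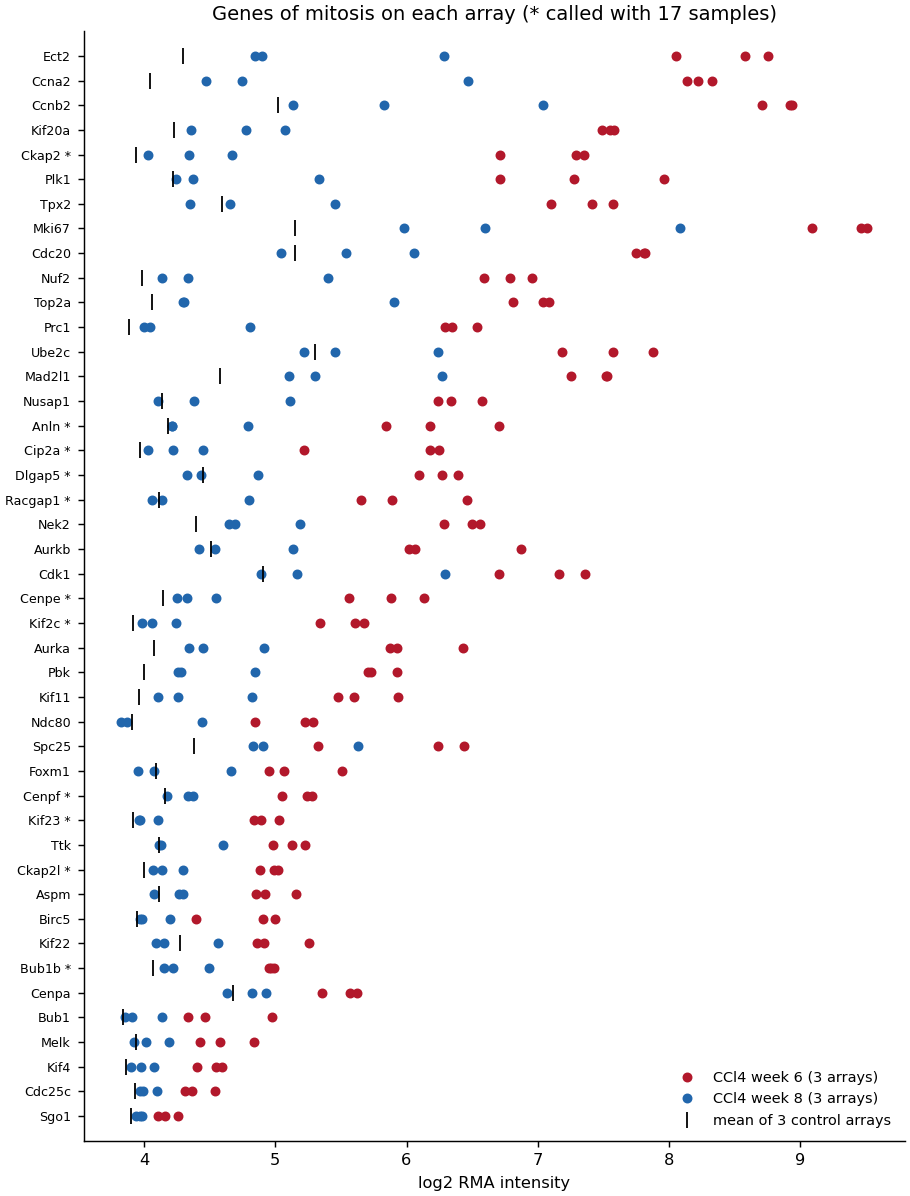
Log2 RMA intensity (x axis) of the 44 measured genes of mitosis on each of the 3 arrays of week 6 (red) and of week 8 (blue), with the mean of 3 control arrays as a black tick. Genes are ordered by their log2 change, stars mark the 11 called with 17 samples, and in 43 of 44 genes all blue points lie left of all red ones.

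On the 3 arrays of week 6 the list was higher than on any other array of the series. Its mean level was 6.08, 6.32 and 6.06 on the 3 arrays of week 6, 5.05, 4.43 and 4.37 on those of week 8 and 4.21 to 4.25 on those of control. The median log2 difference over its genes was 1.76 for week 6 above control, 1.46 for week 6 above week 4, 0.23 for week 8 above control and 0.19 for week 10 above week 8. These differences share samples and are given side by side as values. The 23 genes that fell were chosen for a high week 6 against a low week 8 in this same fit, so their differences from control are a description only. Of them, 23 were called higher at week 6 than in control (2.98% of all genes were) and 0 at week 8 (0.563% of all genes were), and nothing is read from these shares. For these 23, 2 had a mean at week 8 below that of control. Between weeks 8 and 10 no gene was called by limma, with 1695 genes at an unadjusted p under 0.05, a lowest adjusted p of 0.298 and no call with 18 arrays either.

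In 1 of the 3 livers of week 8, genes that copy DNA stood at the level of week 6. The list of DNA replication had 29 measured genes, of which 0 were called by limma with 17 samples or with 18 arrays and 1 had an unadjusted p under 0.05, with a median log2 change of -0.37. Its mean level was 5.85, 5.98 and 5.82 at week 6 and 6.05, 5.10 and 5.25 at week 8, so that replicate 1 of week 8 lay above all 3 arrays of week 6 while its mean level of mitosis genes lay below all of them. In this liver 27 of 29 replication genes were above the lowest array of week 6, against 1 of 44 mitosis genes. Mcm6, a part of the helicase that opens DNA for copying, had levels of 7.65, 7.59 and 7.60 at week 6 and of 7.66, 5.04 and 6.17 at week 8. Rrm1, which makes the building blocks of DNA, had 7.39, 7.49 and 6.97 at week 6 and 6.99, 5.43 and 6.17 at week 8. In both genes the groups overlapped through replicate 1 of week 8. Replicate 1 of week 8 was also the highest of its group in 43 of 44 mitosis genes.

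The promoters of several mitosis genes that fell share short letters, which are shown because the genes moved together. In mammals, CCAAT is bound by the factor NF-Y, and TTTGAA or TTTAAA, called the cell cycle genes homology region, is bound by the DREAM complex, which holds such genes off in resting cells, and by B-MYB and FOXM1 complexes, which switch them on before mitosis. Each of 4 such promoters, those of Cenpe, Racgap1, Kif23 and Cenpf, held both motifs near the start of the transcript, and they are shown for that reason. Of 10 called mitosis genes with a promoter, 7 held both motifs. Kif2c and Anln held no CCAAT, and Cip2a held neither TTTGAA nor TTTAAA. Each sequence runs from 250 bases before the RefSeq start of the gene to 50 after it on GRCm38.p6, 5′ to 3′ in the direction of transcription, with matches to either motif on either strand in capitals.
Cenpe (chr3:135212313-135212612, plus strand): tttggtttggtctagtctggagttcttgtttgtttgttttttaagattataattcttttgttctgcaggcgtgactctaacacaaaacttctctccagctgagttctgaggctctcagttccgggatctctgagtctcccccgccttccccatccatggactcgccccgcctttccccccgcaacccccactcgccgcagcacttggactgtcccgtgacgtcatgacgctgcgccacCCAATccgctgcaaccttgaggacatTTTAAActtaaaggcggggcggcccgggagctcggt
Racgap1 (chr15:99651607-99651906, minus strand): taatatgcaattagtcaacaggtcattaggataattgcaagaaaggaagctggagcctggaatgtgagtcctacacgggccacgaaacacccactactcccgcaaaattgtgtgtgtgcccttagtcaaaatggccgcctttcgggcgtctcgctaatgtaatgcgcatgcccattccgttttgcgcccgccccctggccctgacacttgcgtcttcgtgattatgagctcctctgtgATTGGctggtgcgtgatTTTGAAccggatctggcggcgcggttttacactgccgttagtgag
Kif23 (chr9:61946750-61947049, minus strand): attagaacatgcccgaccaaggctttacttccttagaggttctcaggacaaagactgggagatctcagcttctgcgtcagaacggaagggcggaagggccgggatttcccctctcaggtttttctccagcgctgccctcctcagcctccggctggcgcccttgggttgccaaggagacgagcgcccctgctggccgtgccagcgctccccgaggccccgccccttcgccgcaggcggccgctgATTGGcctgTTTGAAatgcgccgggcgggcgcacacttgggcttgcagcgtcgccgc
Cenpf (chr1:189688037-189688336, minus strand): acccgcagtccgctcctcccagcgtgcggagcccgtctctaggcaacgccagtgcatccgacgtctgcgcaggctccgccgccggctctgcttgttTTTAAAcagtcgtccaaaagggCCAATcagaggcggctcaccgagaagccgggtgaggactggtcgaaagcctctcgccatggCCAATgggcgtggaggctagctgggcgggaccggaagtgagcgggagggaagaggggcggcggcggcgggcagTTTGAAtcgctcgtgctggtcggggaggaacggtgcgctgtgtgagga

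In Cenpe the CCAAT began 12 bases before the start and the TTTAAA at base 15 after it. In Racgap1 the CCAAT, read as ATTGG on this strand, began 12 bases before the start and the TTTGAA at base 6. Kif23 had the same pair at 7 bases before and at base 3, and Cenpf had a CCAAT 71 bases before and a TTTGAA at base 3, with a further copy of each motif upstream. Of the 44 mitosis genes, 36 had a promoter in the table, and 24 of these (66.7%) held both motifs, against 10.9% of the promoters of all 27025 genes in it. CCAAT was in 28 of the 36 (77.8%) against 37.9% of all, and TTTGAA or TTTAAA was in 28 (77.8%) against 27.8%. For the DNA replication list, 24 genes had a promoter, of which 4 (16.7%) held both and 7 (29.2%) held TTTGAA or TTTAAA. The NF-Y motif was in 14 of these 24 replication genes (58.3%). It was also in 12 of 17 genes of the circadian clock with a promoter (70.6%), so it was frequent outside the mitosis list too. The other motif was in 0 of these 17 clock genes. These are counts of letters in 300 bases, in which the 2 motifs were searched apart, and say nothing on whether a factor was bound.

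Outside the mitosis list, the genes that fell included a choline enzyme, an RNA-binding protein, genes of the G2 and M phases and genes of cell attachment. Chka, choline kinase alpha, which starts the synthesis of phosphatidylcholine, fell from 7.55, 7.40 and 6.82 to 5.49, 5.90 and 5.31 (3.00-fold, log2 change -1.59, SE 0.23, adjusted p = 0.0206). Rbmx, an RNA-binding protein of splicing on chromosome X, fell from 6.80, 7.45 and 7.09 to 5.98, 5.93 and 5.95 (log2 change -1.15, SE 0.13, adjusted p = 0.00983). Replicates 1 and 2 of week 6 lay apart here, and the SE takes their mean as 1 sample. Rbmx belongs to a family with closely similar copies, and binding of their RNA to its probes was not tested. Serpinb8, an intracellular protease inhibitor, fell by 0.89, Camk2d, a calcium-dependent kinase, by 0.68, Grb10, an adaptor that dampens insulin receptor signalling, by 0.61 and Parp2, an enzyme of DNA repair, by 0.66. G2e3, Reep4 and Rad21, which act in the G2 and M phases of division and are not in the mitosis list, fell by 0.90, 1.09 and 0.75.

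Among genes of matrix and cell attachment, Col12a1 and Itga5 fell, and the livers of week 6 differed among themselves. Col12a1, a collagen that decorates fibrils, was called, falling from 5.04, 5.57 and 4.74 to 4.27, 4.27 and 4.17 (log2 change -0.78, SE 0.13, adjusted p = 0.03). Itga5, the alpha chain of the fibronectin receptor, fell from 7.49, 7.83 and 6.95 to 6.30, 6.04 and 5.72 (log2 change -1.28, SE 0.22, adjusted p = 0.0421). Both lost their call when any 1 of the 3 control arrays, replicate 1 of week 10, or replicate 2 or 3 of week 8 was left out. Col12a1 also lost it without replicate 1 of week 8, and Itga5 without replicate 1 or 2 of week 2 or of week 4.

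Col1a1, which encodes the main chain of scar collagen, had levels of 10.96, 10.87 and 9.87 at week 6 and of 8.56, 8.53 and 8.35 at week 8 (3.76-fold, log2 change -1.91, SE 0.48), and was not called with 17 samples (adjusted p = 0.156) but was with 18 arrays (adjusted p = 0.0318). At week 8 it was still above the control levels of 5.88, 5.38 and 5.43, with a log2 difference of 2.92 (adjusted p = 0.0056). Acta2, the actin of myofibroblasts, had 9.40, 9.52 and 7.54 at week 6 and 6.46, 6.54 and 6.43 at week 8 (log2 change -2.02, SE 0.38, adjusted p = 0.0627, and 0.0116 with 18 arrays). For Acta2, replicate 3 of week 6 lay between the other week 6 arrays and those of week 8, and the log2 difference of week 8 from control was 0.42.

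Of 18 measured collagens, 1 was called lower with 17 samples, against 0.0995% of all genes, and 9 with 18 arrays, against 0.55%. None was called higher in either, and the median log2 change was -0.65. In 11 of the 18 the groups did not overlap and week 8 was lower, against 8.89% of all genes. In 15 replicate 3 was the lowest of the 3 arrays of week 6. Their mean level was 7.10, 7.16 and 6.57 at week 6, 6.13, 6.15 and 6.28 at week 8 and 5.45 to 5.59 in control. Col1a2, Col3a1, Col6a3 and Col6a1 had log2 changes of -1.85, -1.51, -1.46 and -1.31. The list of 20 myofibroblast genes had a median of -0.38 with 0 called with 17 samples. With 18 arrays 2 were called lower, against 0.55% of all genes. Of the 20, 8 had an unadjusted limma p under 0.05, against 10.1% of all genes. Vim, an intermediate filament of mesenchymal cells and macrophages, had a log2 change of -1.32, and Ccn2, a matricellular growth factor, of -0.10. Markers of mesothelium, the covering of the liver surface, had a mean level of 5.66, 5.82 and 5.01 at week 6, 4.97, 4.80 and 5.35 at week 8 and 4.72 to 4.96 in control, so replicates 1 and 2 of week 6 were highest in the mean of these 8 genes as well. Their part in the matrix values was not tested.

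Genes of macrophages leaned the same way without calls at 17 samples. All 19 measured genes of macrophages and monocytes had a negative log2 change, with a median of -0.50, and their mean level was 6.94, 7.10 and 6.58 at week 6 and 6.39, 5.98 and 6.40 at week 8, against 5.48 to 5.77 in control. By limma 0 were called with 17 samples, and 2, Ctss and Mpeg1, were called lower with 18 arrays, against 0.55% of all genes. Of the 19, 11 had an unadjusted limma p under 0.05, against 10.1% of all genes. Adgre1, which encodes F4/80, had 7.68, 7.59 and 7.28 at week 6 and 7.26, 6.42 and 6.94 at week 8 (log2 change -0.59, adjusted p = 0.568), so its groups lay side by side. For 14 genes of scar-associated macrophages the median was -0.69, with 0 called with 17 samples and 7 at an unadjusted p under 0.05. With 18 arrays 3 were called lower, against 0.55% of all genes. These 3 were Gpnmb, a membrane glycoprotein of lipid-loaded macrophages, with 10.33, 10.40 and 9.40 at week 6 and 8.04, 7.64 and 7.50 at week 8, Mmp12, the macrophage elastase, with a log2 change of -2.02, and Lgals3, galectin-3, with -1.76. Gpnmb at week 8 was still 3.32 above control on the log2 scale (adjusted p = 0.0055).

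**Figure D3:**
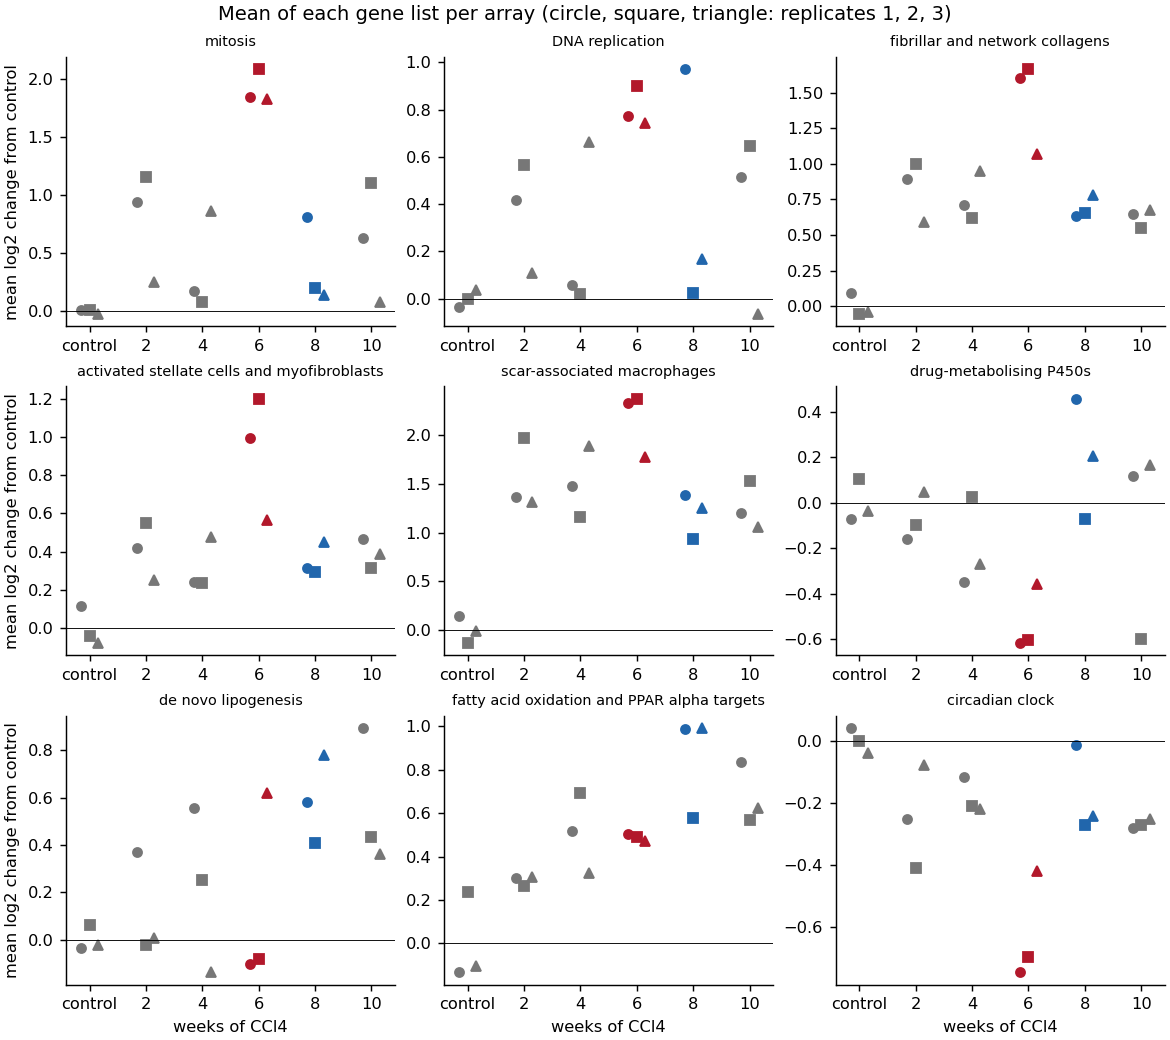
Mean log2 change from the control mean (y axis, scales differ between panels) of 9 gene lists on each array against weeks of CCl4 (x axis), with week 6 in red, week 8 in blue and the replicate given by the marker. In the panel of mitosis the 3 red points lie highest of all arrays, and in that of DNA replication replicate 1 of week 8 (circle) lies above the red points.

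The 4 called rises were those of Lipg, Coq10b, Gde1 and Fitm2, of which Fitm2 belongs to a list, that of lipid droplets and fatty acid uptake. Lipg, endothelial lipase, which cleaves phospholipids of high-density lipoprotein, had levels of 5.76, 5.71 and 7.62 at week 6 and of 9.01, 8.86 and 9.50 at week 8 (5.44-fold, log2 change 2.44, SE 0.42, adjusted p = 0.0421). Control lay at 8.71, 8.83 and 8.87, week 2 at 7.79, 6.86 and 7.57 and week 10 at 7.20, 7.64 and 7.40. Replicate 3 of week 6 thus lay among the arrays of weeks 2 and 10, and only its alike replicates 1 and 2 lay below them. Coq10b, a mitochondrial protein that binds coenzyme Q, rose from 7.59, 7.60 and 8.27 to 9.31, 9.16 and 9.66, close to the 9.46 to 9.50 of control (log2 change 1.44, SE 0.21, adjusted p = 0.0238). In both genes replicate 3 of week 6 stood above the other week 6 arrays and below all of week 8.

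Gde1, which hydrolyses glycerophosphodiesters, rose from 7.79, 7.67 and 7.62 to 8.58, 8.37 and 8.98 (1.96-fold, adjusted p = 0.0409). Fitm2, an endoplasmic reticulum protein needed to bud lipid droplets, rose from 6.64, 6.89 and 7.02 to 7.63, 7.83 and 8.20 (1.99-fold, adjusted p = 0.0421). Each of the 4 lost its call without replicate 3 of week 8, which for Coq10b was the only array of the 18 to do so. Lipg, Gde1 and Fitm2 also lost it when any 1 control array, or 1 of several arrays of weeks 2, 4, 6, 8 or 10, was left out.

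**Figure D4:**
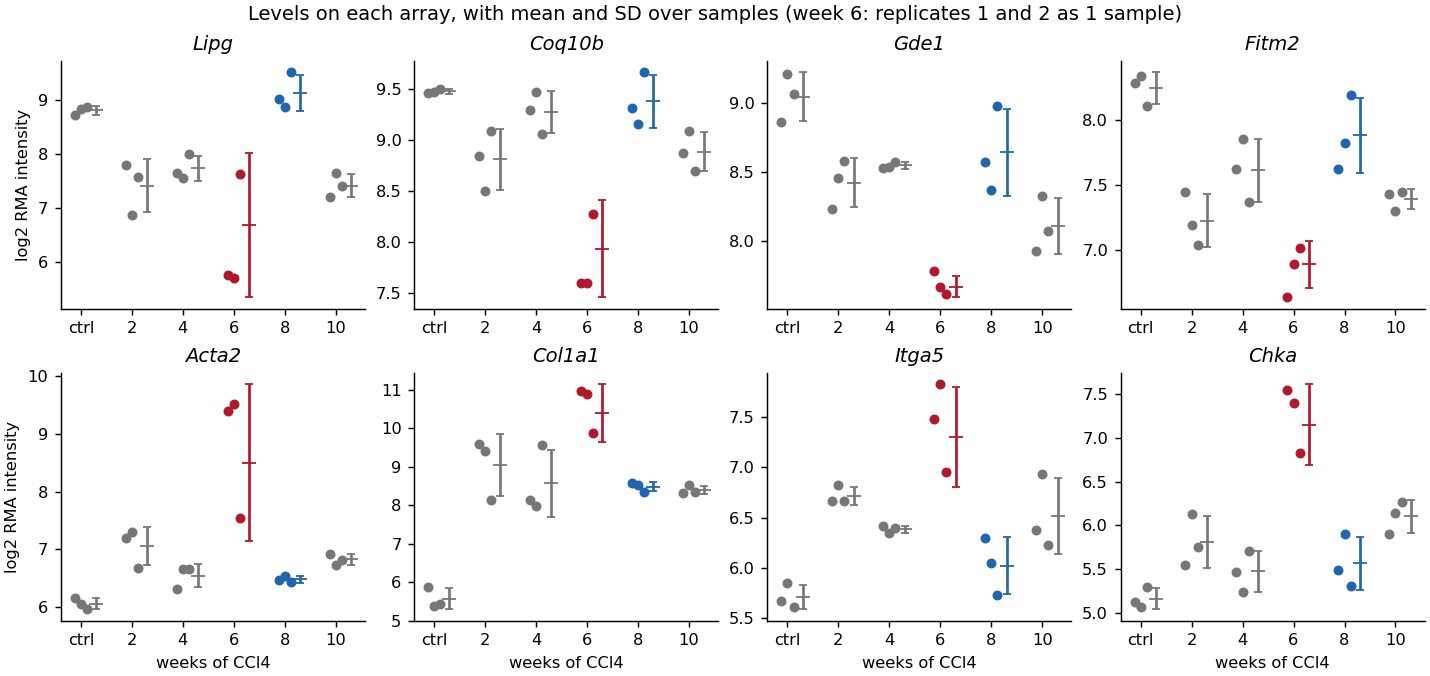
Log2 RMA intensity (y axis, scales differ between panels) of 8 genes on the 3 arrays of control (ctrl) and of each time point, in weeks of CCl4 (x axis), with the mean and SD over samples beside the points (n = 3, and n = 2 at week 6, where replicates 1 and 2 count as 1). For Lipg, Coq10b, Gde1 and Fitm2 the red points of week 6 lie below the blue points of week 8, and for Acta2, Col1a1, Itga5 and Chka they lie above.

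Since only 4 genes were called higher, 11 further ones of lowest p with a fold above 1.5 and no overlap are described by their values. They were Snrk, Gm826, Ces2a, Slco1a4, Ttc7b, Cyp2d40, Gm10768, Ppara, Upp2, Ciart and Them4, with adjusted p from 0.0546 for Snrk to 0.0954 for Them4, and all 11 were called with 18 arrays. Ppara, the nuclear receptor that switches on fatty acid oxidation in fasting, had 8.31, 8.37 and 8.69 at week 6 and 9.17, 9.11 and 9.24 at week 8 (log2 change 0.66, SE 0.13, adjusted p = 0.0789), against 9.48, 9.35 and 9.42 in control. Ces2a, a carboxylesterase, had a log2 change of 1.31, Slco1a4, an uptake transporter for bile salts and drugs, of 1.61 and Upp2, which breaks down uridine, of 1.04. Upp2 levels were 8.76, 8.58 and 8.81 at week 6 and 9.74, 9.75 and 9.85 at week 8, with little spread in either group.

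A list of cytochromes of drug metabolism, which also holds the nuclear receptors Nr1i2 and Nr1i3, had positive log2 changes in most members. None was called with 17 samples. Of 21 measured genes of this list, 20 had a positive log2 change, with a median of 0.72. By limma 0 were called with 17 samples, and 2 were called higher with 18 arrays, against 0.242% of all genes. An unadjusted p under 0.05 was found for 9, against 10.1% of all genes. The mean level was 8.06, 8.08 and 8.32 at week 6, 9.14, 8.61 and 8.89 at week 8 and 8.61 to 8.79 in control. Cyp2c55 had 6.63, 6.97 and 8.04 at week 6 and 10.43, 9.84 and 8.50 at week 8 (log2 change 2.17, SE 0.65, adjusted p = 0.227). Cyp2c38 and Cyp3a44, which were called with 18 arrays, had log2 changes of 1.76 and 1.68. These genes have close relatives in their clusters, and cross-binding of probes was not tested. Cyp2e1, which activates CCl4, had 13.11, 13.07 and 12.39 at week 6 and 13.31, 13.48 and 13.62 at week 8 (log2 change 0.73, SE 0.29, adjusted p = 0.386), against 13.82 to 13.88 in control.

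Lists of lipid metabolism had medians above 0, but Fitm2 was their only member called with 17 samples, where 0.0173% of all genes were called higher. Of 27 genes of lipid droplets and fatty acid uptake, 20 had a positive log2 change, with a median of 0.13 and a range from -1.31 to 1.12. For 22 genes of de novo lipogenesis the median log2 change was 0.38, with 0 called by limma with 17 samples or 18 arrays. Of the 22, 4 had an unadjusted limma p under 0.05, against 10.1% of all genes. Replicate 3 of week 6 was the highest of its group in 20 of these 22 genes, and its mean level of 10.70 was above the 10.66 and 10.49 of replicates 1 and 2 of week 8, while replicates 1 and 2 of week 6 had 9.97 and 10.0. Fasn, the fatty acid synthase, had 11.10, 11.12 and 12.40 at week 6 and 12.35, 12.03 and 12.47 at week 8 (log2 change 0.53, SE 0.43, adjusted p = 0.781). Me1, which supplies NADPH for this synthesis, had a log2 change of 1.34 (adjusted p = 0.512) and Elovl6, which lengthens fatty acids, of 1.11, while Scd2, a desaturase, had -1.26. Scd1, the main desaturase of hepatocytes, had 12.94, 12.88 and 13.44 at week 6 and 13.46, 13.55 and 13.72 at week 8. For 26 genes of fatty acid oxidation the median was 0.38, with 0 called by limma with 17 samples and 9 at an unadjusted p under 0.05. With 18 arrays Ppara alone was called, as higher, against 0.242% of all genes. Cyp7a1, the rate-limiting enzyme of bile acid synthesis, had 10.98, 10.91 and 10.11 at week 6 and 11.29, 11.71 and 12.38 at week 8 (log2 change 1.27, SE 0.61, adjusted p = 0.52).

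Of 19 measured genes of the circadian clock, 15 had a positive and 4 a negative log2 change, with no call at 17 samples. In this clock, ARNTL and CLOCK switch on genes such as Per2, Ciart and Dbp through E-boxes, whose canonical form is CACGTG, and PER, CIART and NR1D proteins feed back on them. Dbp had 7.02, 7.11 and 9.15 at week 6 and 10.21, 9.27 and 9.91 at week 8, against 10.53, 10.14 and 10.40 in control (log2 change 1.69, SE 0.50, adjusted p = 0.217, and 0.0483 with 18 arrays). Arntl had 6.62, 6.62 and 5.34 at week 6 and 4.27, 4.88 and 4.28 at week 8, against 4.35, 4.30 and 3.98 in control (log2 change -1.51, SE 0.33, adjusted p = 0.106, and 0.0194 with 18 arrays). In both genes the 2 alike arrays of week 6 were farthest from control and replicate 3 lay between them and week 8.

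Of these clock genes, 0 were called by limma with 17 samples. With 18 arrays 6 were called higher, against 0.242% of all genes, and 1, Arntl, lower, against 0.55%. At an unadjusted limma p under 0.05, 8 were higher and 3 lower, against 10.1% of all genes in either direction. Usp2, a deubiquitinase under clock control, Ciart and Per2 had log2 changes of 1.49, 1.26 and 0.99. The median of the list was 0.34, and its mean level was 6.72, 6.78 and 7.05 at week 6, 7.46, 7.20 and 7.23 at week 8 and 7.43 to 7.51 in control. None of the sources used here gives the hour at which the mice were killed. Ciart, whose groups did not overlap at 6.34, 6.15 and 6.93 against 8.42, 7.47 and 7.66, held CACGTG 3 times, beginning 116, 58 and 44 bases before its start, and its promoter is shown with these letters in capitals.
Ciart (chr3:95882179-95882478, minus strand): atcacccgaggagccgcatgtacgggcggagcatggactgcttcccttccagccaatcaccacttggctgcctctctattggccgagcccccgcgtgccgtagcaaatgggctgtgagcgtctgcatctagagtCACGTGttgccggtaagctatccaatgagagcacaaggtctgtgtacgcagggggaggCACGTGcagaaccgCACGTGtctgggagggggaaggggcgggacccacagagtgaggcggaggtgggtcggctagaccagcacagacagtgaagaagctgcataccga

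CACGTG was in 5 of the 17 clock genes with a promoter (29.4%) against 7.24% of all genes. The windows of Dbp, Usp2 and Nr1d2 did not hold these letters. TTATGNAA, which DBP and its relatives bind, was in 2 of the 17 (11.8%) against 3.52%.

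**Figure D5:**
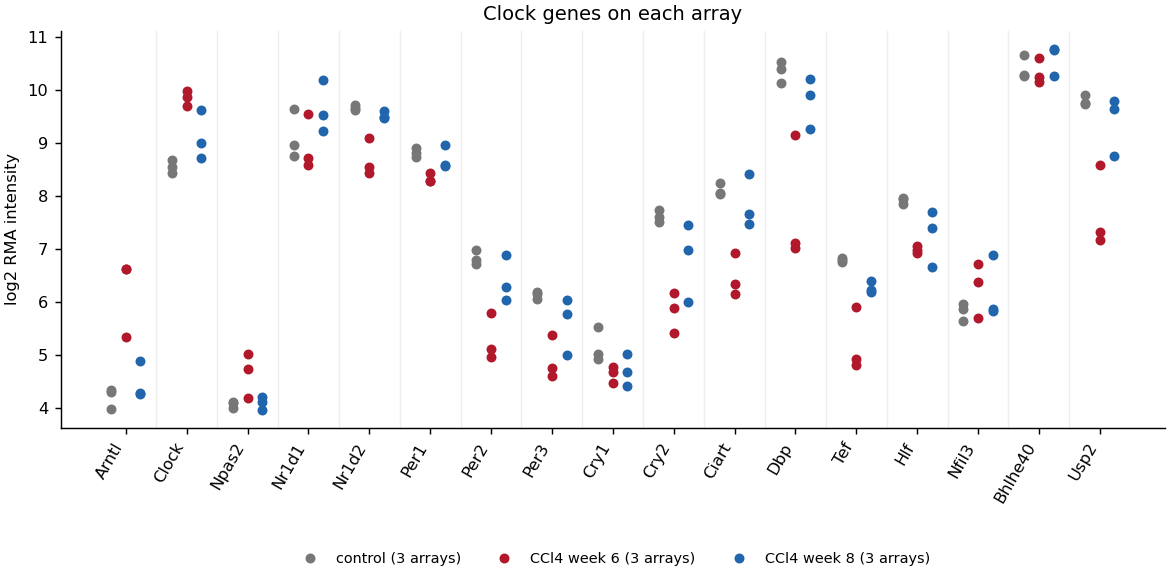
Log2 RMA intensity (y axis) of 17 clock genes (x axis) on each of the 3 arrays of control (grey), week 6 (red) and week 8 (blue) of CCl4. For Arntl the red points lie above the blue ones, for Dbp, Usp2, Ciart, Per2, Tef and Nr1d2 below them, and in Arntl, Dbp and Usp2 1 red point, replicate 3, stands apart from the other red points.

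Some of the remaining lists are given by their counts, with 10.1% of all genes at an unadjusted p under 0.05. Over all genes, 0.0995% were called lower with 17 samples and 0.55% with 18 arrays. Others of the 40 lists are not described here. Of 23 acute phase genes, 21 had a negative log2 change (median -0.23), 11 did not overlap and were lower, against 8.89% of all genes, 8 had an unadjusted p under 0.05, and 0 were called by limma with 17 samples or 18 arrays. Of 24 interferon-stimulated genes, 22 were negative (median -0.24), 8 did not overlap and were lower, 4 had an unadjusted p under 0.05, and 0 were called with 17 samples and 1 with 18 arrays, as lower. Of 26 other matrix proteins, 22 were negative (median -0.42), 12 did not overlap and were lower, 12 had an unadjusted p under 0.05, and 0 were called with 17 samples and 2 with 18 arrays, as lower.

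Of 10 genes of Kupffer cells, the resident macrophages of the liver, 8 were negative (median -0.32) and 0 had an unadjusted p under 0.05. Of 18 genes of bile acid synthesis and sterol efflux, 16 were positive (median 0.32) and 3 had an unadjusted p under 0.05. The medians were 0.16 for 20 genes of cholesterol synthesis, 0.24 for 16 pericentral and 0.0070 for 13 periportal hepatocyte genes, with 1, 3 and 5 genes at an unadjusted p under 0.05. In these 5 lists limma called 0 genes with 17 samples and 0 with 18 arrays. Nr4a1, an orphan nuclear receptor induced within minutes of many stimuli, had 5.10, 5.14 and 4.64 at week 6 and 6.53, 8.49 and 6.71 at week 8 (log2 change 2.36, SE 0.66, adjusted p = 0.188), the largest change among 20 immediate early genes, whose median was 0.12. Glul, glutamine synthetase of the innermost pericentral hepatocytes, had 9.77, 9.70 and 9.84 at week 6 and 10.21, 9.99 and 10.67 at week 8 (log2 change 0.51, adjusted p = 0.742), both below the 12.47 to 12.49 of control.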

How the data were processed

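Liver RNA was hybridised to Affymetrix Mouse Gene 2.0 ST arrays. The authors used affyPLM with a custom Brainarray annotation that has 1 feature per Entrez gene, and deposited log2 intensities from RMA, whose version none of the sources used here gives. Of 23748 features, 23111 had a gene name and were tested.

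The fit used lmFit and eBayes of limma 3.58.1 (R 4.3.3, no trend) with 1 mean per group over all 6 groups, and p-values were adjusted by Benjamini-Hochberg over all named genes. SE denotes the model-based standard error. Groups of 2 or 3 samples limit the precision. Replicate numbers did not pair the arrays of weeks 6 and 8, whose deviations correlated at -0.078, -0.042 and 0.062.

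The comparison and 40 gene lists were chosen with earlier results of these data known, and no list was tested as a set. Named are the 15 largest called changes in each direction, rises filled up to 15 by lowest p, the 5 largest changes of a list and genes the study names. Serpinb8, Col12a1, Ckap2l, Rad21, Bub1b, Camk2d, Parp2, Grb10, Tef and Nr1d2 fall outside this rule and were chosen after their values were seen. Promoters came from RefSeq (GRCm38.p6, first listed start of each gene). As a check of the code alone, the fit was run on simulated data with independent noise for each gene, unlike genes that move together. Python 3.11.15 and matplotlib 3.10.9 drew the plots.

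Alternatives were 18 separate arrays, a replicate block, no fold minimum or a fold above 2, fewer groups in the fit, a robust prior with limma-trend, weights for arrays, low genes left out, repeated quantile normalization, median centring, all features, and each array left out in turn.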

Additional observations from a re-analysis of the deposited data

Results flagged for a closer look

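Among the 637 features without a gene name, which the comparison of named genes leaves out, 1 feature was called when all 23748 features were tested together. Its levels were 5.74, 6.21 and 6.06 in replicates 1, 2 and 3 of week 6 and 4.70, 4.31 and 4.49 in those of week 8, against 4.55, 4.13 and 4.13 in control. The log2 change was -1.52 (limma adjusted p = 0.0284), and the arrays of the 2 groups did not overlap.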

How the results depend on the processing

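With week 6 at n = 2, the 27 calls depended on how the spread was estimated. The number called was 183 with 18 separate arrays, 144 with a replicate block on these 18 arrays (the numbers do not pair the samples), 42 with no fold minimum, 14 with a fold above 2, 2 with weeks 6 and 8 fitted alone, 5 with control left out of the fit, 52 with limma-trend and a robust prior, 62 with array weights and 66 with low genes left out, where 15158 genes were tested. It was 27 after median centring and 28 over all features. Quantile normalization repeated on the RMA values also gave 27, which is no separate check, since RMA already includes this step. Leaving out each array in turn gave 4 (without replicate 3 of week 8) to 51 (without replicate 3 of week 6, where week 6 is a lone sample taken to vary as other groups do). All 27 kept their direction in every setting run, which is no check, since their separate array values left little room for a change of sign. The call was kept by 27 of 27 with 18 arrays, the replicate block, limma-trend, array weights and low genes left out. The cause of these differences was not tested. Of the 44 mitosis genes, 20 had a mean at week 8 below 4.35, the median of all values, where an array resolves changes poorly.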
